A study of Gallus gallus with 33 samples.

Results

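POU4F2 and POU5F1 are transcription factor genes of the POU family, and 1 probe for each was followed here in the chick utricle after a laser lesion. They are 2 of the 1516 probes analysed. Both were chosen from ratios already computed on these arrays, POU4F2 for lower ratios 30 min and 3 hr after the lesion and POU5F1 for higher ratios at 2 hr. Those 3 values are therefore given as descriptions with no test, and tests are kept for POU4F2 at 1 hr and 2 hr and for POU5F1 at 30 min, 1 hr and 3 hr.

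The utricle is a balance organ of the inner ear, and its sensory epithelium consists of hair cells and the supporting cells around them. Pieces of sensory epithelium from White Leghorn chicks were freed from the underlying tissue with the protease thermolysin and grown on fibronectin-coated wells with fetal bovine serum until semi-confluent, then wounded with a pulsed laser microbeam and returned to culture, to be harvested at 1 of 4 times between 30 min and 3 hr. Unlesioned cultures kept beside the microscope and harvested at the same time served as time-matched controls. All cultures, lesioned and control, went through the same isolation and outgrowth, and every biological sample pooled the RNA of several specimens, so that variation between single specimens is not seen. RNA amplified from both arms was labelled with Cy3 and Cy5 and hybridized together, on 33 arrays from 9 biological samples, which were 2 samples on 5 arrays at 30 min, 2 on 6 arrays at 1 hr, 2 on 8 arrays at 2 hr and 3 on 14 arrays at 3 hr. The values are log2 ratios of laser over control, so that a value below 0 means less signal from the lesioned cultures. Within a biological sample the arrays are technical repeats and dye swaps, and they were averaged to 1 value before any test.

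POU proteins bind DNA through a bipartite domain, a POU-specific part joined to a homeodomain. In the mouse the POU4 class, also called Brn3, acts in sensory cells and neurons. Pou4f3 (Brn3c) is needed for hair cells to mature and survive, Pou4f2 (Brn3b) for retinal ganglion cells and Pou4f1 (Brn3a) for sensory neurons. POU5F1 (OCT4) maintains pluripotent cells in mammals, where it acts with SOX2, and the related gene of birds, known as PouV, serves early embryonic cells. The probes were designed on human genes and used across species. In the chicken gene table of assembly GRCg7b, 8 of the 10 POU probes considered here matched a current symbol, POU4F2 among them. POU5F1 was not matched by symbol there, and the table lists a gene Pou5f3 with the synonyms Pou2 and POUV. Which chicken transcript the POU5F1 probe bound was not tested.

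Properties of the arrays touch every value below. Median spot signal per array ran from 178 to 2411 in Cy3 and from 90.2 to 1438 in Cy5. The dim filter kept a probe for testing if 50% or more of the arrays read over 1000 for it in Cy3 or Cy5, and 371 of 1516 probes (24.5%) did, both members included. In 4 biological samples (1 hr replicate 2, 2 hr replicate 2, 3 hr replicate 2 and 3 hr replicate 3) the ratios of the dye orientations correlated below -0.3 across probes after each had been turned to laser over control, with r between -0.80 and -0.36. The image names in the file headers state the dye of each RNA on all 33 arrays, and that direction was kept. On 2 arrays the file names gave the opposite dyes, suffix 3 array 2 of 2 hr replicate 2 and suffix 3 array 1 of 3 hr replicate 2. Both lie in samples of opposed orientations. By file name the sign of r would turn in 3 hr replicate 2, which had 1 array per orientation. Which reading is right was not tested. Values with the sign turned stand beside the members' results at 1 hr, 2 hr and 3 hr. No 30 min sample fell below -0.3. That cut marks opposed orientations only, and samples above it did not all give like ratios in both dyes. At 30 min r was 0.30 for replicate 1 and -0.04 for replicate 2, so the latter showed no likeness between orientations. At the later times replicate 1 gave r of 0.31 (1 hr), 0.23 (2 hr) and 0.80 (3 hr). The sample 3 hr replicate 1 stood apart, with a standard deviation of 1.03 over the 371 probes that passed the filter, against 0.16 to 0.40 in the other samples. These samples are bulk cultures, in which fewer cells that express a gene cannot be told apart from less of its RNA per cell. The p-values measure the spread of biological samples within time points, pooled over all 9 samples and moderated across probes, and not that of 1 time point alone.

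Of the hair cell and supporting cell factors listed as a check of the tissue, 21 of 27 had a probe and 7 of these passed the dim filter. SOX2, which supporting cells keep, was over the signal level on 25 of 33 arrays, and RFX3, a hair cell regulator, on 28. Defining factors of either cell type were also found below the filter. ATOH1, which starts hair cell differentiation, was over the level on 12 of 33 arrays, GFI1, a repressor needed for hair cell survival, on 15, BARHL1 on 11 and POU4F3 on 10, and of the supporting cell factors PROX1 was over it on 11, SOX9 on 10 and SOX10 on 10. The lists for other cells passed with 2 of 4 probes for neurons, 1 of 8 for mesenchyme and 3 of 9 for blood. Brightness across probes reflects each oligonucleotide as well as each transcript, so these counts do not rank cell types.

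With the dyes taken by header, POU4F2 lay below 0 in 8 of 9 biological samples and on 26 of 33 arrays. These counts include the 30 min and 3 hr values that chose the gene. Away from these, 1 of 2 samples and 5 of 6 arrays were below 0 at 1 hr, and 2 of 2 samples and 5 of 8 arrays at 2 hr. At 30 min the log2 ratio was -0.43 in replicate 1 and -0.64 in replicate 2. At 1 hr it was -0.24 in replicate 1 and 0.36 in replicate 2, so the 2 samples fell on opposite sides of 0. The samples at 2 hr lay close to 0, with -0.09 in replicate 1 and -0.05 in replicate 2. At 3 hr all 3 samples were below 0, with -0.66, -0.41 and -0.84 in replicates 1, 2 and 3. Replicate 2 rested on its suffix 3 array at -0.81, since its suffix 5 array gave -0.01. On that suffix 3 array the file name gave the opposite dyes, and by file name replicate 2 would lie above 0. Lower values thus stood at the first and the last time point, with values near 0 or of mixed sign between them.

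The mean log2 ratio of POU4F2 was -0.54 ± 0.15 (SD, n = 2) at 30 min, which is 1.45-fold lower in lesioned than in control cultures, and -0.64 ± 0.22 (SD, n = 3) at 3 hr, or 1.56-fold lower. At 30 min 2 of 5 arrays passed the signal level of 1000 for POU4F2, the laser channel exceeded 2 times its background on 1, and neither channel was above background on another. Both means were among those that chose the gene and carry no test. At 1 hr the mean was 0.06 ± 0.42 (SD, n = 2), with a 95% interval of -0.37 to 0.50 and an adjusted p of 0.991 by limma. At 2 hr the mean was -0.07 ± 0.03 (SD, n = 2), with an interval of -0.50 to 0.37 and an adjusted p of 0.995. With the suffix 5 arrays flipped in the samples whose dye orientations were opposed, these means were -0.48 at 1 hr and -0.25 at 2 hr, and with the suffix 3 arrays flipped instead 0.24 and 0.16, so the sign at both times depended on the direction taken. The intervals at 1 hr and 2 hr leave room for differences of more than 1.2-fold either way. From lowest to highest the order of the means was 3 hr, 30 min, 2 hr, 1 hr. The samples of 3 hr and 30 min overlapped in range, as did those of 2 hr and 1 hr.

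**Figure D1:**
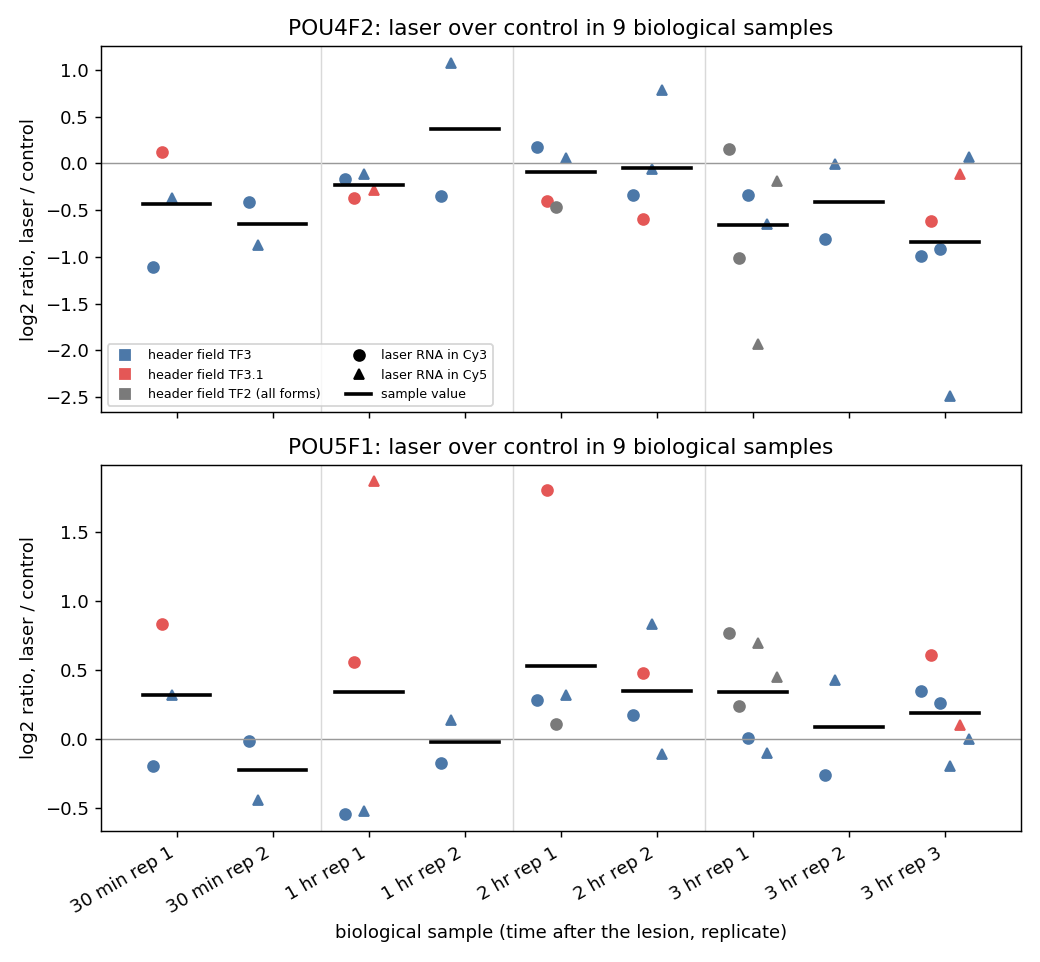
Log2 ratio of laser over control (vertical axes) for POU4F2 and POU5F1 in the 9 biological samples (horizontal axis, time after the lesion and replicate). Points are arrays, shaped by the dye of the laser RNA and coloured by the field name in the file header, and bars are the sample values, which for POU4F2 lie between -0.43 and -0.64 at 30 min and between -0.41 and -0.84 at 3 hr, and for POU5F1 between 0.35 and 0.53 at 2 hr.

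Single arrays show how evenly these means are carried. At 30 min the arrays of replicate 1 gave POU4F2 ratios of -1.11, 0.12 and -0.37, and those of replicate 2 gave -0.41 and -0.88, so 4 of 5 arrays were below 0. On the last of these the duplicate spots disagreed, at -1.93 and 0.17. The median difference between duplicate spots at this time point was 0.19, so that pair was far from typical. At 1 hr the 6 arrays ran from -0.37 to 1.08 with a median of -0.23, and 5 of 6 were below 0. The positive mean of that time point rested on the 1 array at 1.08, the suffix 5 array (laser RNA in Cy5) of replicate 2, whose duplicate spots were alike at 1.02 and 1.14. Without this array the 1 hr mean was -0.29. At 2 hr the 8 arrays ran from -0.59 to 0.79 with a median of -0.20, 5 of them below 0.

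At 3 hr the 14 arrays ran from -2.49 to 0.15 with a median of -0.64, and 12 of 14 were below 0. Of these 12, the suffix 3 array of replicate 2, at -0.81, would turn above 0 with the dye by file name. The lowest value, -2.49, came from suffix 5 array 1 of replicate 3, where the laser channel read 1394 against a local background of 1423 and the control channel read 2091 against 866. The laser signal of POU4F2 was therefore not above background on that array. Another low value, -1.94, came from suffix 5 array 1 of replicate 1. That array had a standard deviation of 2.00 over the probes that passed the dim filter. Leaving out each of the 14 arrays in turn kept the 3 hr mean between -0.77 and -0.50, and leaving out 3 hr replicate 1 gave -0.63. The 3 hr mean was -0.35 when the sign of the suffix 5 arrays was flipped in the 4 samples of opposed orientations, and -0.09 when the sign of their suffix 3 arrays was flipped instead. With the dye taken by file name the mean was -0.37, and the deposited series table, which follows the file names, gave -0.37.

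POU5F1 lay above 0 in 7 of 9 biological samples and on 23 of 33 arrays, counts that include the 2 hr values that chose the gene. Away from these, 2 of 5 arrays were above 0 at 30 min, 3 of 6 at 1 hr and 11 of 14 at 3 hr. At 30 min the log2 ratio was 0.32 in replicate 1 and -0.23 in replicate 2, on opposite sides of 0. At 1 hr it was 0.34 in replicate 1 and -0.02 in replicate 2. Both samples at 2 hr were above 0, with 0.53 in replicate 1 and 0.35 in replicate 2. The 3 hr samples gave 0.34, 0.09 and 0.19 in replicates 1, 2 and 3. All samples of the 2 later time points were thus above 0, while each earlier time point held 1 sample on either side.

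The mean log2 ratio of POU5F1 at 2 hr, the value that chose the gene, was 0.44 ± 0.13 (SD, n = 2), which is 1.35-fold higher in lesioned cultures. In the deposited series table, centred on each array's median, the same mean was 0.10. None of the 3 tested time points passed the threshold. At 30 min the mean was 0.05 ± 0.39 (SD, n = 2), with a 95% interval of -0.37 to 0.46 and a limma adjusted p of 0.990. At 1 hr it was 0.16 ± 0.25 (SD, n = 2), with an interval of -0.26 to 0.58 and an adjusted p of 0.991. The 3 hr mean was 0.20 ± 0.13 (SD, n = 3), a ratio of 1.15, with an interval of -0.14 to 0.55 and an adjusted p of 0.656. The same flips gave 0.09 and 0.25 at 1 hr and 0.07 and 0.16 at 3 hr, with no call. In rising order the means stood at 30 min, 1 hr, 3 hr and 2 hr, and the first 3 overlapped in the range of their samples. The lowest sample at 2 hr (0.35) lay just above the highest at 3 hr (0.34).

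Across arrays, POU5F1 at 30 min gave -0.20, 0.84 and 0.32 in replicate 1 and -0.02 and -0.44 in replicate 2. At 1 hr the 6 arrays ran from -0.55 to 1.87 with a median of -0.02, and 3 were above 0. The 8 arrays at 2 hr ran from -0.11 to 1.81 with a median of 0.30, and 7 of 8 were above 0. Of these 7, suffix 3 array 2 of replicate 2, at 0.48, would turn below 0 with the dye by file name. At 3 hr the 14 arrays ran from -0.26 to 0.77 with a median of 0.25, and 11 of 14 were above 0. High values at 1 hr and 2 hr came from single arrays well apart from the rest, 1.87 on suffix 5 array 2 of 1 hr replicate 1 and 1.81 on suffix 3 array 2 of 2 hr replicate 1. On both the duplicate spots were alike, at 1.87 and 1.87 on the first and at 1.92 and 1.69 on the second. On the second the laser channel read 9440, the highest laser signal of POU5F1 on any array, against 1475 in the control channel. Without the first of these arrays the 1 hr mean of POU5F1 was -0.14, and without the second the 2 hr mean was 0.30.

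Those arrays share a field name. The file headers name the scanned field of each array, and 7 arrays carry the name TF3.1, 21 carry TF3 and 5 carry a form of TF2. What distinguishes the fields is not given in the sources used here, beyond a different spot layout on the TF2 arrays. With the dyes by header, POU5F1 was above 0 on 7 of 7 TF3.1 arrays, with values from 0.10 to 1.87 and a median of 0.61. It was also above 0 on 5 of 5 TF2 arrays. The 7 include suffix 3 array 2 of 2 hr replicate 2, at 0.48, where the file name gave the opposite dyes. By file name that array would lie below 0, and the 2 hr mean of POU5F1 was 0.32. On the TF3 arrays it was above 0 on 11 of 21 with a median of 0.00. The counts of POU5F1 under each field name include 2 hr arrays, whose high ratios chose the gene. Of the 371 probes, 5 (1.35%) were above 0 on all 7 TF3.1 arrays. At 2 hr, the time point that chose the gene, 4 of 5 TF3 arrays were above 0, with a median of 0.28. At 1 hr 3 of 4 TF3 arrays were below 0, with a median of -0.35.

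Without the TF3.1 arrays, a setting chosen after the values were seen, the mean of POU5F1 was 0.26 at 2 hr, 0.18 at 3 hr, -0.28 at 1 hr and -0.08 at 30 min. The 1 hr and 30 min means thus changed sign, with adjusted p of 0.994 and 0.997 by limma. The part of the field in the POU5F1 ratio was not tested further. POU4F2 was below 0 on 16 of 21 TF3 arrays, 6 of 7 TF3.1 arrays and 4 of 5 TF2 arrays, so it was mostly below 0 under each field name. These counts include the 30 min and 3 hr arrays, whose low ratios chose the gene. Flipping the suffix 5 arrays in the samples of opposed orientations gave POU5F1 a 2 hr mean of 0.25, and flipping their suffix 3 arrays instead gave 0.27.

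**Figure D2:**
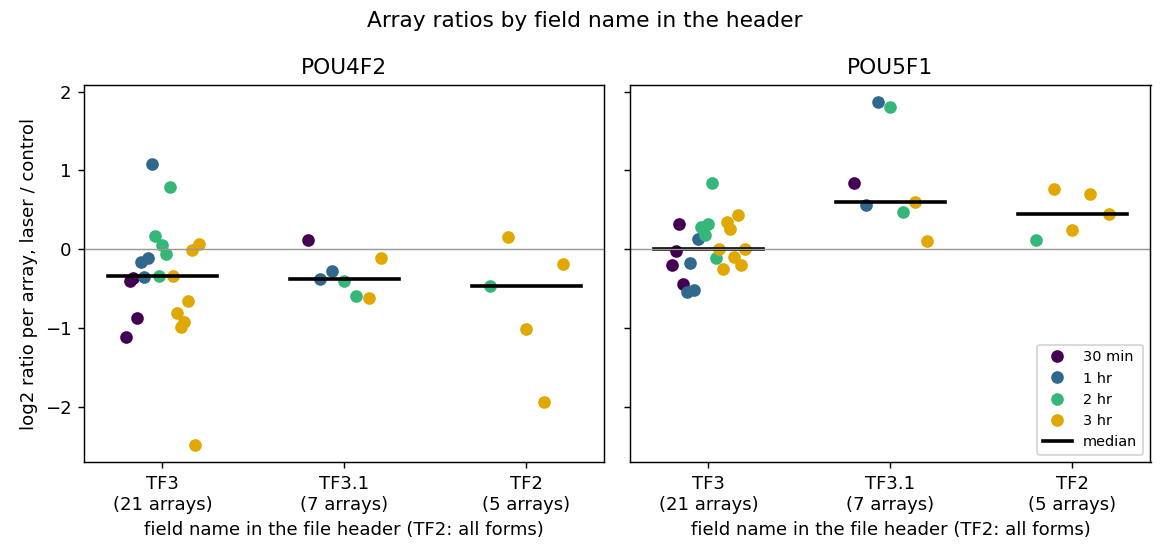
Log2 ratio of laser over control on each of the 33 arrays (vertical axis), grouped by the field name in the file header (horizontal axis, all forms of TF2 together) and coloured by time after the lesion, with black bars at the medians. POU5F1 is above 0 on all 7 TF3.1 arrays (median 0.61) and lies around 0 on the 21 TF3 arrays, while POU4F2 is mostly below 0 under each field name. The arrays shown include those whose ratios chose the genes. Dyes are taken by header, and 1 of the 7 TF3.1 arrays has the opposite dyes by file name.

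The signal behind these ratios was low. Across the 33 arrays the laser channel of POU4F2 read from 135 to 2813 with a median of 1018, and the control channel from 76.3 to 5722 with a median of 820. The control channel exceeded its local background on 28 arrays and the laser channel on 29, and both did so on 27 of 33. Signal was more than 2 times the local background on 17 arrays in the laser channel and on 20 in the control channel. POU4F2 was thus measured above background on most arrays but by a modest margin, and the ratio of signal to background had a median of 2.04 for laser and 2.19 for control.

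For POU5F1 the laser channel read from 182 to 9440 with a median of 909, and the control channel from 103 to 2938 with a median of 641. Both channels exceeded background on 26 of 33 arrays, the laser channel alone on 4 and neither on 3. At 3 hr the control channel exceeded background on 10 of 14 arrays and the laser channel on 13, so on 3 arrays of that time point the ratio set a measured laser signal against a control signal that was not above background. The median ratio of signal to background over all arrays was 1.87 for laser and 1.66 for control. Raw signals of the channels also differ by dye, so the ratios above come after normalization and do not follow from these medians.

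**Figure D3:**
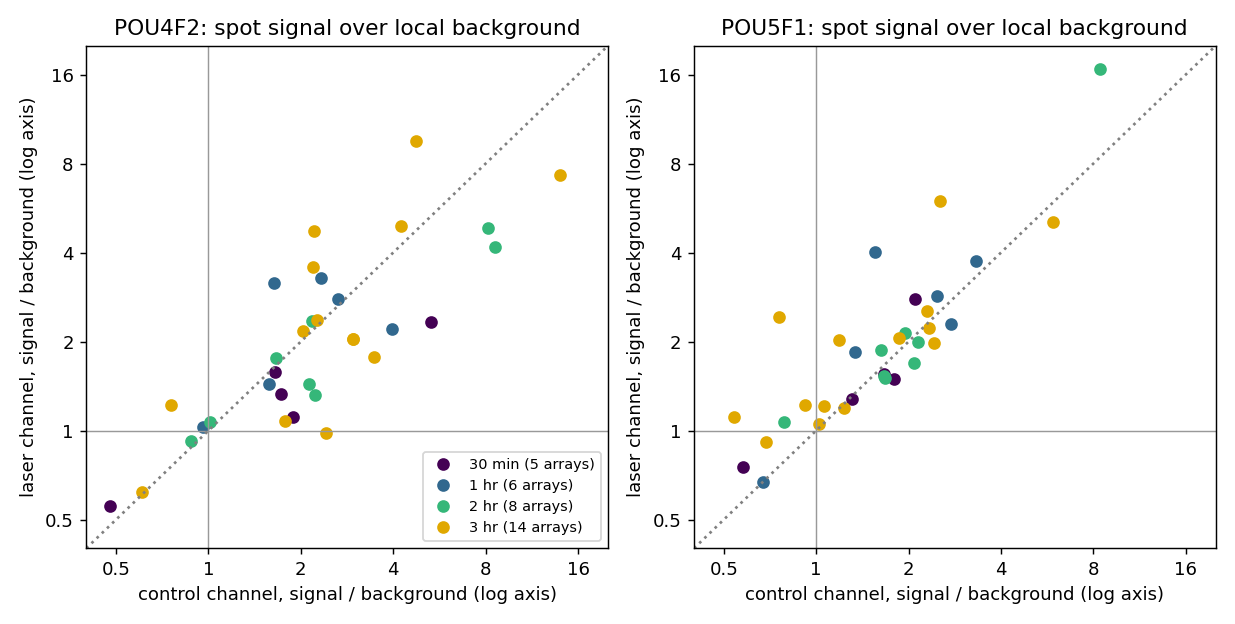
Spot signal divided by local background in the control channel (horizontal axis, log scale) and the laser channel (vertical axis, log scale) for POU4F2 and POU5F1, 1 point per array, coloured by time. Grey lines mark a signal equal to background and the dotted line marks equal ratios; POU4F2 exceeds background in both channels on 27 of 33 arrays and POU5F1 on 26 of 33.

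Neighbouring spots give a view of the surface around each probe. For each spot the median log2 ratio of the spots of other probes within 2 rows and 4 columns was taken. Around POU4F2 this median ran from -1.03 to 1.34 over the 33 arrays, with a middle value of 0.01. It was far from 0 on arrays of 3 hr replicate 3, at -1.03 and -0.72 on 2 suffix 3 arrays and at 1.34 and 0.86 on 2 suffix 5 arrays. On suffix 5 array 1 of that sample POU4F2 at -2.49 lay opposite to its neighbours at 1.34. On suffix 3 arrays 1 and 3 it was at -0.99 and -0.92, in the direction of its neighbours.

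Subtracting the neighbours, a correction chosen after the values were seen, left POU4F2 below 0 on 24 of 33 arrays, with means of -0.73 at 30 min and -0.69 at 3 hr. Its 2 low time points, picked as low on these same arrays, stayed low under this correction. The surroundings of POU5F1 were closer to 0, from -0.27 to 0.43. After the same subtraction POU5F1 was above 0 on 21 of 33 arrays, and on 6 of 8 at 2 hr.

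**Figure D4:**
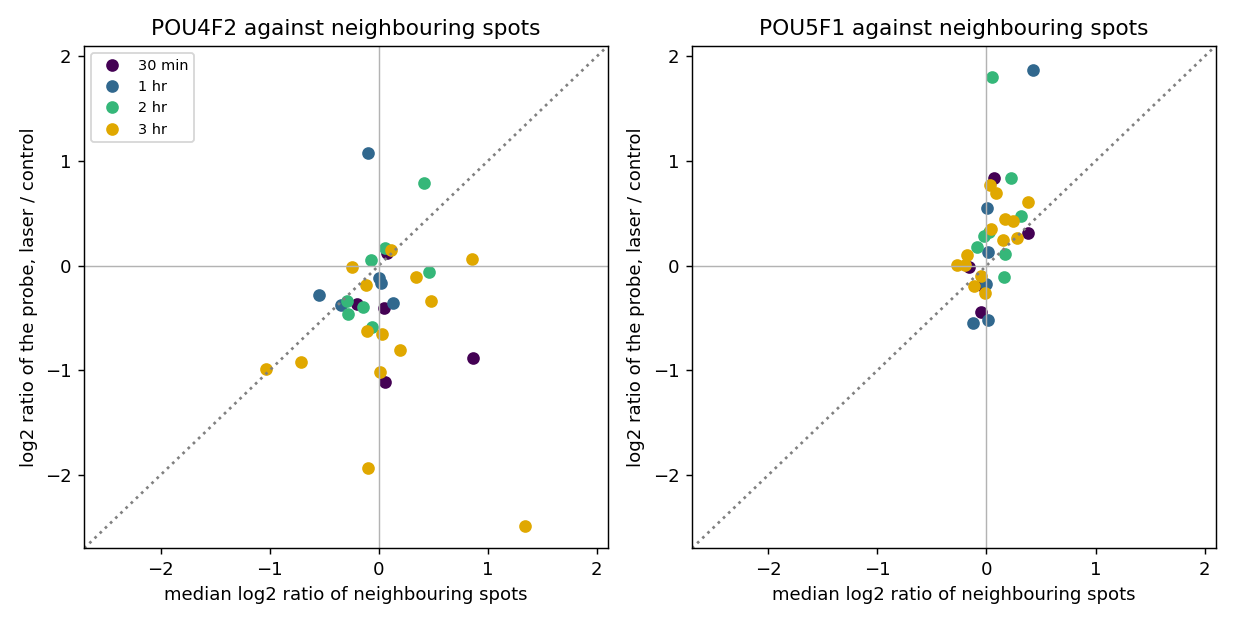
Log2 ratio of each probe (vertical axes) against the median log2 ratio of neighbouring spots of other probes (horizontal axes), 1 point per array, coloured by time, with a dotted line where both are equal. For POU4F2 the neighbours span -1.03 to 1.34 and 1 array at 3 hr lies at -2.49 with neighbours at 1.34, whereas for POU5F1 they span -0.27 to 0.43.

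The dye swaps also give the part of the ratio that follows the dye, taken as the suffix 5 value minus the suffix 3 value divided by 2. It is described with no test, since the rule that picked the genes asked for a shared sign across arrays of both orientations. For POU4F2 this was 0.14 ± 0.32 (SD, n = 9), above 0 in 6 of 9 samples. It ran from -0.26 in 3 hr replicate 1 to 0.72 in 1 hr replicate 2. With laser RNA in Cy3 POU4F2 was below 0 in 9 of 9 samples, and with laser RNA in Cy5 in 6 of 9. For POU5F1 the dye part was 0.02 ± 0.22 (SD, n = 9), above 0 in 5 of 9 samples. Both orientations gave the same sign in 6 of 9 samples for each gene.

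With the limma adjusted p under 0.05, 0 of 371 probes (0%) were called at any of the 4 time points in either direction, the members included. An unadjusted p under 0.05 was reached by 3 probes (0.809%) at the 30 min time point and 4 probes (1.08%) after 1 hr. By 2 hr the number was 6 (1.62%), and it was 7 (1.89%) after 3 hr. The looser rule that picked the members asked for an unadjusted p under 0.05, a change over 1.2-fold and the same sign on 80% of the arrays. It took 3 probes lower at 30 min (0.809% of 371), 4 probes higher at 2 hr (1.08%) and 1 probe lower at 3 hr (0.27%), and POU4F2 was that 1 probe. By size, ranks that follow from the choice except that of POU5F1 at 3 hr, POU4F2 stood 10th from the lowest at 30 min and 38th at 3 hr, and POU5F1 stood 6th from the highest at 2 hr and 18th at 3 hr.

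The probes next to the threshold of that rule, in order of the unadjusted p, were as follows. At 30 min the last probe inside was KLF5, an epithelial zinc finger factor, at -1.09 and the first outside was CEBPG at -1.03. At 3 hr POU4F2 at -0.64 was itself the last inside, and the nuclear receptor NR1H3 at -0.40 the first outside. At 2 hr PRDM15 at 0.40 was the last inside and GFI1B at 0.32 the first outside. Having every biological sample on 1 side of 0 was common among all probes. At 3 hr, with the dyes by header, 9.7% of the 371 were lower in every sample, as POU4F2 was. Another 10.8% were higher in every sample, as POU5F1 was. By file name POU4F2 would be above 0 in replicate 2 of 3 hr. With 2 samples a time point these shares were larger, 16.7% lower in both at 30 min, 34% lower in both at 2 hr and 31.5% higher in both at 2 hr.

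**Figure D5:**
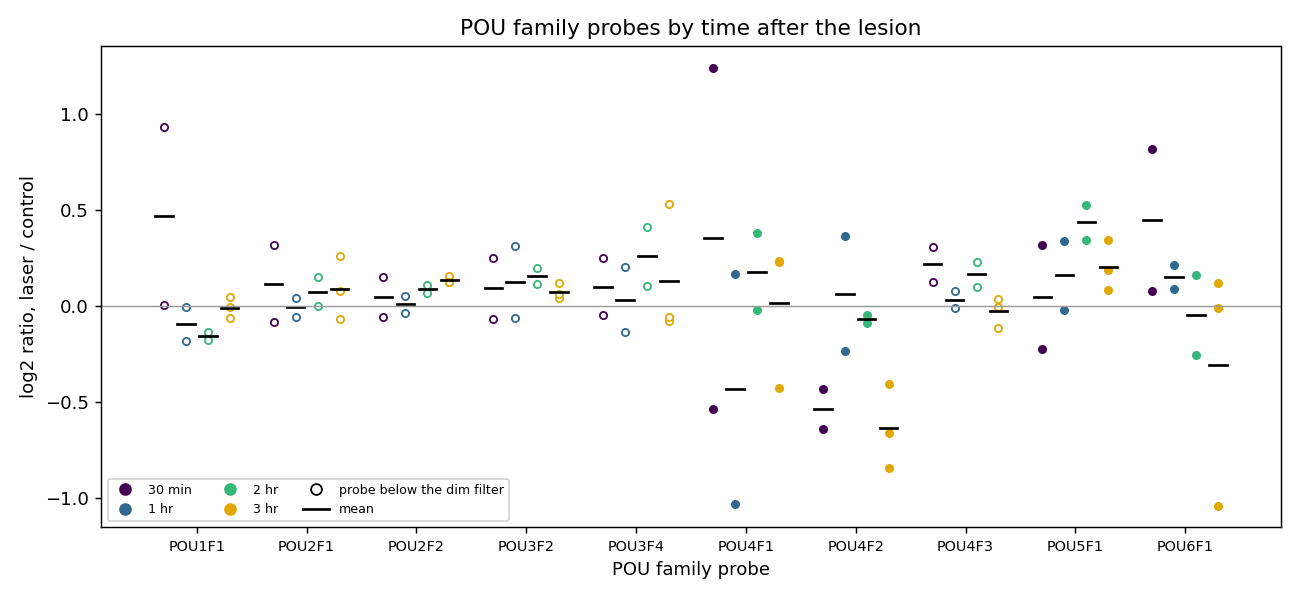
Log2 ratio of laser over control (vertical axis) for 10 POU family probes (horizontal axis) in each biological sample, coloured by time, with black bars at the time point means. Open circles are probes that did not pass the dim filter; POU4F2 at 30 min and 3 hr lies lower than the POU4F3 samples, which stay between -0.12 and 0.31, and POU4F1 spreads from -1.03 to 1.24.

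The array held probes for 10 of the 14 POU family genes considered here, and 4 passed the dim filter: POU4F1, POU4F2, POU5F1 and POU6F1. Apart from the members' chosen values, 0 family probes were called at any time point by limma, and 0 reached an unadjusted p under 0.05. At 30 min 9 of the 10 probes were above 0 and 1, POU4F2, was below, with a family median of 0.11 against 0.00 over all probes. Over all probes 51.3% were above 0 at that time. Most of the 10 did not pass the dim filter, so this count rests largely on dim probes. The family medians at 1 hr, 2 hr and 3 hr were 0.03, 0.12 and 0.04, against -0.01, 0.00 and 0.01 over all probes. POU4F2 was the lowest of the 10 at 30 min and 3 hr and POU5F1 the highest at 2 hr, which follows from how they were chosen. POU5F1 was also the highest at 1 hr and 3 hr, by margins smaller than the standard errors of its means (0.18 and 0.15).

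Within the POU4 class, POU4F3, the hair cell member, gave 0.13 and 0.31 at 30 min, -0.01 and 0.08 at 1 hr, 0.10 and 0.23 at 2 hr, and 0.04, -0.12 and -0.01 at 3 hr. All 9 samples of POU4F3 lay within -0.12 to 0.31, but the probe was over the signal level on 10 of 33 arrays and was not tested. POU4F3 thus gave no low value at 30 min or 3 hr where POU4F2 did. The difference between the genes was not tested, since the POU4F2 values there chose the gene.

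POU4F1, the sensory neuron member, gave 1.24 and -0.54 at 30 min, -1.03 and 0.17 at 1 hr, 0.38 and -0.02 at 2 hr, and -0.43, 0.24 and 0.23 at 3 hr. Its samples lay on both sides of 0 at every time point, and its adjusted p in limma was 0.990, 0.991, 0.995 and 0.991 in order of time. The sample values of the 3 POU4 probes thus shared no direction at 30 min or 3 hr. The limma interval of POU4F1 was wide, from -0.69 to 1.39 at 30 min and from -0.83 to 0.86 at 3 hr. It included the POU4F2 means of -0.54 and -0.64 at these times, and POU4F3 did not pass the dim filter. Whether the POU4 genes differ in their response was therefore not tested.

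POU6F1, also called Brn5 and widely expressed in the nervous system, gave 0.82 and 0.08 at 30 min, 0.09 and 0.21 at 1 hr, -0.26 and 0.16 at 2 hr, and -1.04, -0.01 and 0.12 at 3 hr. The -1.04 came from 3 hr replicate 1, the sample with the wide spread, and the lowest adjusted p of POU6F1 was 0.656, at 3 hr. Probes of the other classes did not pass the filter and are described by their means alone. POU1F1, the pituitary factor, had means of 0.47, -0.09, -0.16 and -0.01 in order of time, the first resting on 1 sample at 0.93. POU2F1 (OCT1), found in most cells, had means between -0.01 and 0.12 and POU2F2 (OCT2), of lymphoid cells, between 0.01 and 0.14. The neural factor POU3F2 had means between 0.07 and 0.16. POU3F4, which in humans and mice is needed in the mesenchyme of the inner ear for hearing, had means between 0.03 and 0.26.

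Factors that act with OCT4 in pluripotent cells had 9 of 14 probes on the array, 3 of which passed the filter, and 0 were called in either direction. Their median log2 ratio at 2 hr, when POU5F1 was highest, was -0.06, with 3 of 9 above 0, against 0.00 and 50.1% above 0 over all probes. SOX2 was at 0.05 and 0.30 in the samples of 2 hr, and KLF5 at 0.16 and -0.29. MYC had a mean of -0.13 at 2 hr with both samples below 0. The highest mean on this list at 2 hr was 0.18, that of SOX2, against 0.44 for POU5F1. That value chose POU5F1, so its place above the list follows from the choice.

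The hair cell and supporting cell factors had 0 of 7 tested probes called at any time point. At 30 min their median was 0.04, with 14 of 21 above 0, and at 3 hr 0.01, with 12 of 21 above 0. Over all probes 51.3% were above 0 at 30 min and 54.3% at 3 hr. POU4F2 was at -0.54 and -0.64 at these times, values that chose the gene, so its distance from the list follows from the choice. SOX2 was at -2.32, -0.02 and 0.01 in the 3 hr samples, its low mean resting on 3 hr replicate 1. ID1, an inhibitor of bHLH factors such as ATOH1, was at 0.69 and 0.76 at 2 hr (adjusted p of 0.995 by limma), from suffix 5 values of 1.64 and 1.63 and suffix 3 values of -0.26 and -0.10, and at -1.27, -0.27 and 0.30 at 3 hr. SOX9, which did not pass the filter, was at -1.67, -0.16 and -0.11 at 3 hr, low in the same replicate. The neuron, mesenchyme and blood lists had 0 probes called, and at 3 hr, with POU4F2 low, their medians were 0.03, -0.03 and -0.02, with 3 of 4, 3 of 8 and 3 of 9 probes above 0. At 2 hr, with POU5F1 high, they were -0.09, 0.17 and -0.02. Their part in the members' ratios was not tested.

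Likeness of pattern was described by Pearson's r of the log2 ratios over the 9 biological samples, with the other 370 probes that passed the filter. These points share arrays and dyes, and the probes named are those with the highest r of the 370, so r is given as a description. The probes most like POU4F2 were PAX7, a paired box factor of muscle stem cells, with r of 0.83 and Spearman's rho of 0.63, then NKX6A with r of 0.74 and rho of 0.48, and GTF2F1, a subunit of the general transcription factor TFIIF, with r of 0.70 and rho of 0.83. PAX7 had means of 0.02, 0.55, 0.23 and 0.07 in order of time, so it shared the higher value at 1 hr with POU4F2 and not the values below 0. That 1 hr value of POU4F2 rested on 1 array at 1.08, without which its mean was -0.29. GTF2F1 had means of -0.05, 0.17, 0.28 and -0.36.

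For POU5F1 the most similar probes were ZHX1, a zinc finger and homeobox repressor, with r of 0.86 and rho of 0.93, FLJ20321 with r of 0.83 and rho of 0.80, and MLLT4, the junction protein afadin, with r of 0.81 and rho of 0.63. ZHX1 had means of -0.20, -0.10, 0.12 and 0.05 in order of time. Its highest mean, like that of POU5F1, was at 2 hr. POU4F2 and POU5F1 themselves had an r of 0.10 and a rho of 0.20 over the 9 samples.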

How the data were processed

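Each of the 33 arrays was deposited as 2 channel files, 1 per dye, which per the file headers hold the intensity of each spot and of its local background as read by the ImaGene software, on a linear scale and neither subtracted nor normalized. The deposited series table holds log2 ratios, which the authors took from the raw mean intensity of the same spots, uncentred (largest difference 6.22e-15), and it was used as an alternative. The authors' own normalized values and the hybridizations they left out were not used here. The members and gene lists were chosen with earlier results of these data known, and the lists came from textbook roles.

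Spot means were corrected by normexp (offset 50) and normalized by loess within each array with limma 3.58.1 in R 4.3.3. Control spots (18 identifiers) had weight 0. On 2 arrays the header and file name gave opposite dyes, and the header was followed. The deposited series table takes the dyes by file name on these arrays, so it goes against that choice. Spots were averaged per probe, turned to laser over control, averaged per dye orientation and then equally over both. Limma tested the mean of each time point against 0 over all 9 biological samples with a shared spread, with Benjamini-Hochberg adjustment over 371 probes. The fit was tested on simulated data. The number of arrays limits the precision. Named genes were the members, every other POU probe (1 is not reported here), the 3 probes most like each member and at most 3 per other list by mean size of ratio. KLF5, CEBPG, NR1H3, PRDM15 and GFI1B were named for standing at the rule's threshold, and ATOH1, GFI1, BARHL1, RFX3, PROX1 and SOX10 as cell markers, after their values were seen. Alternatives changed the correction, normalization, unit, filter, dye reading, samples and arrays.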

Additional observations from a re-analysis of the deposited data

Results flagged for a closer look

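At 1 hr the POU4F2 log2 ratio on suffix 5 array 1 of replicate 2 was 1.08 and stood apart from the other 5 arrays of that time point, which lay between -0.37 and -0.12. Its gap to the nearest of them was 0.82 of the whole range of the 6 arrays, above the Dixon value of 0.625 for 6 values. Chance alone marks about 1 in 20 such groups, and 6 groups of arrays were examined. The signal on that array was 2.78 times background in the laser channel and 2.65 times in the control channel, and the neighbouring spots were at -0.10. The sample is 1 of the 4 whose dye orientations were opposed.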

How the results depend on the processing

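Apart from leaving out 1 sample or array, 20 alternatives were run. No tested value of POU4F2 or POU5F1 passed an adjusted p of 0.05 under any of these, the lowest being 0.387. POU4F2 stayed below 0 at 30 min and 3 hr, and POU5F1 above 0 at 2 hr and 3 hr, in every alternative that gave a value. All of these but POU5F1 at 3 hr were picked for their sign on these same arrays. Keeping that sign under another processing is therefore no separate support. The value of POU4F2 at 30 min was -0.73 with the local correction and -0.69 on TF3 arrays alone and without TF3.1 arrays (-0.69). At 3 hr it was -0.37 with the dye by file name and -0.37 in the series table, which also takes the dyes by file name. It was -0.35 with the suffix 5 arrays of the opposed samples flipped and -0.089 with their suffix 3 arrays flipped instead. POU5F1 at 2 hr was 0.32 with the dye by file name, 0.10 in the series table and 0.25 and 0.27 under those flips. It was 0.29 on TF3 arrays alone and 0.26 without TF3.1 arrays. The cause of these changes was not tested.

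At the tested time points some signs changed. POU4F2 at 1 hr was -0.017 with arrays as units, -0.036 in the methods' t-test, -0.48 with suffix 5 flipped and -0.31 on suffix 3 arrays alone. At 2 hr it was 0.080 with the dye by file name, 0.16 with suffix 3 flipped, 0.10 in the series table, 0.21 on suffix 5 arrays alone and 0.065 on TF3 arrays. POU5F1 at 30 min was -0.028 without background correction, -0.021 in the series table, -0.061 on suffix 5 arrays alone, -0.0024 with the local correction and -0.084 on TF3 arrays and without TF3.1 arrays (-0.084). At 1 hr it was -0.084 on suffix 3 arrays alone and -0.28 on TF3 arrays and without TF3.1 arrays (-0.28).

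The replicate numbers gave no sign of pairing the samples (deviations of 12 same-numbered pairs correlated between -0.37 and 0.25), and with the replicate block POU4F2 at 1 hr was -0.039, while no call changed.

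Leaving out 1 sample or array moved POU4F2 between -0.69 and -0.38 at 30 min, -0.29 and 0.42 at 1 hr, -0.17 and 0.038 at 2 hr and -0.77 and -0.50 at 3 hr. POU5F1 moved between -0.23 and 0.32 at 30 min, -0.14 and 0.46 at 1 hr, 0.30 and 0.55 at 2 hr and 0.09 and 0.32 at 3 hr. A lone sample was then assumed to vary like the others. Over all probes, 0 to 1 were called at 30 min (1 without 3 hr replicate 1) and 0 at the other times. With each time point fitted alone 2 probes were called at 1 hr and 12 at 2 hr, none of them another POU probe. With the dim filter on both channels the members did not pass. Signal near background limits both genes.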
